A study of Caenorhabditis elegans with 2 samples.

Results

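The cuticle collagen genes of Caenorhabditis elegans were taken as the protein-coding genes whose symbol starts with col, bli, sqt or rol and a number, which gave 169 of the 19973 protein-coding genes of the nuclear genome. They were examined in a ChIP-seq experiment, which sequences the DNA precipitated with a protein from sheared chromatin, on MADF-9, a protein with a MADF domain, a DNA-binding domain named after the Drosophila factor Adf-1. The worms, used whole, were of the strain RW12324 and carried st12324, a CRISPR insertion on chromosome IV that tags madf-9 with TY1::EGFP::3xFLAG. They were L4 larvae of 48 hours, synchronized by starving L1 larvae after bleaching. The labels' descriptions give an antibody against GFP, which would bind the tag, while their antibody field names madf-9. The chromatin had been sonicated to 200 to 800 bp. There was 1 group of 2 biological replicates, and no untagged or input library was analysed here, so no conditions are compared and a peak cannot be told apart from a region that is enriched without MADF-9.

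The cuticle is the collagen-rich outer layer that the epidermis secretes anew at each molt. Its collagens are short proteins built around repeats of glycine and a pair of further residues (Gly-X-Y), often with proline, which wind into triple helices. They are made in waves before each molt, and mutations in some of them give blistered (bli), squat (sqt) or rolling (rol) worms. In the translated coding sequences, 164 of the 169 members held the repeat, with a median of 51 Gly-X-Y triplets (range 20 to 198) in proteins with a median of 304 residues over all members. The 5 without it were bli-3, a dual oxidase that cross-links cuticle proteins, bli-4, a proprotein convertase that trims collagens, bli-5, a Kunitz-type protease inhibitor, rol-3, a receptor tyrosine kinase-like protein, and col-17, whose annotated reading frame gave no such run. The members were short genes, with a median length of 1228 bp against 2027 bp over all protein-coding genes. Their coding exons had a median GC content of 54.8%, against 42.5% over all protein-coding genes, while the promoter windows differed less (35.6% against 35.0%).

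The sequences at the summits, the highest point of each peak, show what the peaks beside these genes lie on. Each is 101 bases centred on the summit, on ce11, read from the RefSeq copy of that assembly on the strand of the named collagen gene. The first 3 are the summits counted as promoter summits below, those of col-185, bli-1 and col-71. In the col-185 window the capitals mark an annotated tRNA gene. The bli-1 window lies inside the coding exon of its neighbour col-80, and there the capitals mark CCAGGA, which reads Pro-Gly when translated in frame. The col-71 window holds neither.
col-185, chrX:13511953-13512053, minus strand: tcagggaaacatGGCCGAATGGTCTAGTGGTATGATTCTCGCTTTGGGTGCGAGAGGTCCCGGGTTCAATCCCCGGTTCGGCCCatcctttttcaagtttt
bli-1 (in the col-80 exon), chrII:10707941-10708041, plus strand: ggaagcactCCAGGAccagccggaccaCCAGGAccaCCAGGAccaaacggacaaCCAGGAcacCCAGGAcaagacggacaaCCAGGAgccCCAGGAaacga
col-71, chrII:3502775-3502875, minus strand: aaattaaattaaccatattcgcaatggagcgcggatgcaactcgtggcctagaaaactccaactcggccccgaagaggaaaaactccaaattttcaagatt
The next 3 windows lie in coding exons of col-39, col-19 and col-93, with CCAGGA in capitals. The last, in a coding exon of col-124, lies outside the Gly-X-Y repeat and holds no CCAGGA.
col-39, chrII:10705712-10705812, plus strand: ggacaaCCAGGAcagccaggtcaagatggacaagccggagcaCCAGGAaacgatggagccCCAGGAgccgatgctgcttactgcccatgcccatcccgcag
col-19, chrX:422363-422463, plus strand: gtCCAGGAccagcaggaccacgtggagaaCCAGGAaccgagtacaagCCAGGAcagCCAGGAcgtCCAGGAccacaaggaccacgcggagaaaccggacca
col-93, chrIII:10984902-10985002, minus strand: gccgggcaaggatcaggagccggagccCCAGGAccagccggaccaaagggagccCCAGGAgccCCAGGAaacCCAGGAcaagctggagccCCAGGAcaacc
col-124, chrIV:10216650-10216750, plus strand: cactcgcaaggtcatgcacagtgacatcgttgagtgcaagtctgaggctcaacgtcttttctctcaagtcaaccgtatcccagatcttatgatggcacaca

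The peaks came from the authors' set of 1637 regions that recurred between the replicates at an irreproducible discovery rate (IDR, an estimate of how many regions at that rank fail to repeat) of at most 0.01. Each replicate alone gave 1002 peaks in replicate 1 and 806 in replicate 2. Signal is the authors' strength value of each peak, on a scale that was not stated, and the read depth is unknown. The median signal was 89.3 in the set between the replicates, 62.8 in replicate 1 and 56.8 in replicate 2, so values are compared only within a list.

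Few collagen genes had a MADF-9 summit at their promoter, the stretch from 1000 bp upstream to 200 bp downstream of a transcript start. A summit lay there in 3 of 169 members, a share of 1.78% (95% Wilson interval 0.606 to 5.09%, for counting error only), against 941 genes or 4.71% of all protein-coding genes. At this setting the interval of the members takes in the share of all genes, so a lower share than that of other genes was not shown. The interval does not take in 5.93%, the share among genes that carry a class symbol, as the members do. With ranked regions at an IDR of at most 0.05, a threshold chosen after the data were seen, 4 members or 2.37% had a promoter summit. The share of all genes was then 7.38%, and these differences were not tested. The counts were 1 member against 3.19% of all genes in replicate 1 and 2 members against 2.46% in replicate 2. In the other series set, made from pooled data, 2 members had a promoter summit, against 4.70% of all genes. With 2000 bp upstream the count was 7 members or 4.14% (interval 2.02 to 8.30%), against 6.53% of all genes.

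The strongest of the 3 promoter summits was that of col-185, at chrX:13511873-13512132, 906 bp upstream of its start. Its signal was 124 in the set between the replicates, 55.1 in replicate 1 and 60.6 in replicate 2, and it passed the threshold in each replicate alone. The summit lay 38 bp into the tRNA-Pro gene WBGene00014413, whose 72 bases fill most of the window printed above. A second peak near col-185, 3496 bp upstream and near no tRNA gene, had a signal of 120 (66.1 in replicate 1 and 51.9 in replicate 2).

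For col-71 the summit lay 255 bp upstream, in the peak chrII:3502695-3502954, with a signal of 83.5. Its region did not pass in replicate 1, with a signal of 31.8, and passed in replicate 2, with 54.4. The same summit lies in the promoter window of the neighbouring gene Y49F6B.2, and which of the genes the peak belongs to cannot be told apart. Of the 3, this is the summit closest to a start.

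The bli-1 gene encodes a collagen of the struts of the adult cuticle. Its summit lay 969 bp upstream, in the peak chrII:10707861-10708120, with a signal of 56.1 in the set, 30.2 in replicate 1 and 41.4 in replicate 2. That position is 790 bp downstream of the start of col-80, in its coding exon and within its Gly-X-Y repeat. The summit therefore counts both for the promoter of bli-1 and for the body of col-80, and it is absent from the pooled set.

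The members that 2000 bp upstream added were col-80, col-92, col-94 and col-140. The col-80 summit, 1439 bp upstream, is the one in the coding exon of col-39, and the col-92 summit, 1699 bp upstream, is the one in the coding exon of col-93. The col-140 summit, 1938 bp upstream with a signal of 64.1, lies in the promoter window of F26F12.2. The highest signal beside any member was at col-94, in the peak chrIII:10989640-10989746, 1785 bp upstream, with 254 in the set, 142 in replicate 1 and 105 in replicate 2. That summit ranked 61 of 1637 and lies within 250 bp of the snRNA gene WBGene00014543, inside the gene dhc-4 on the other strand. A weaker summit of 6.43 followed at 1984 bp upstream of col-94, with no region in replicate 1 and the same region as its neighbour in replicate 2.

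**Figure D1:**
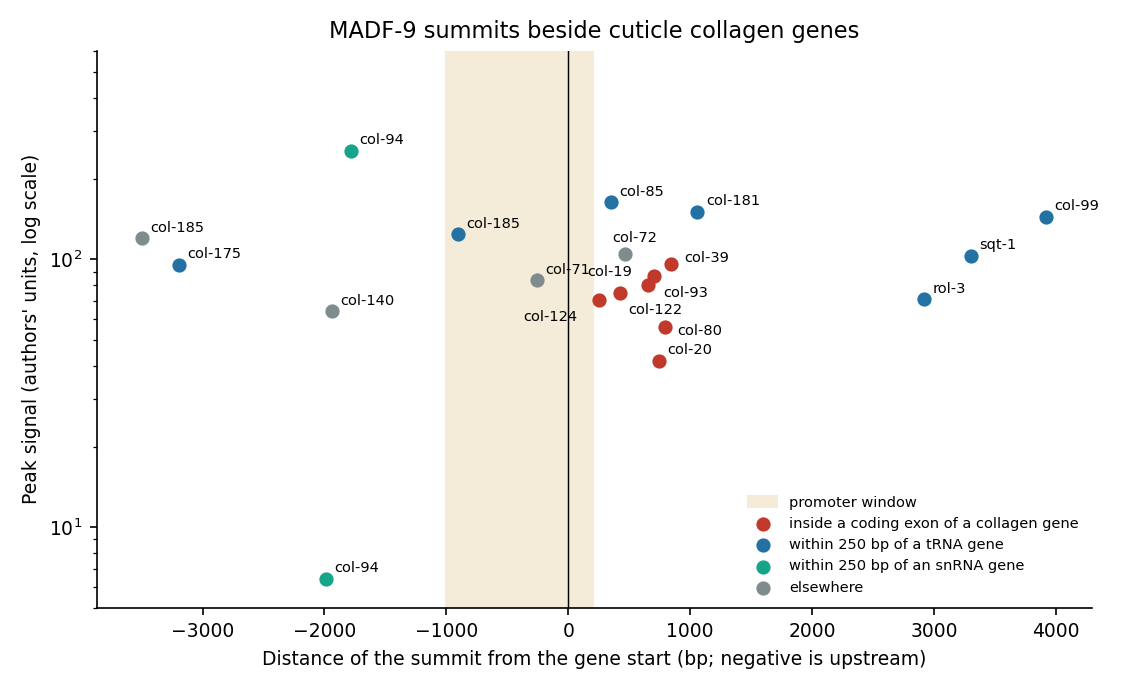
Signal (authors' units, log scale) of the 20 summits beside cuticle collagen genes against the distance from the start of the named gene (bp, negative upstream). Each point is a summit coloured by what lies under it, the band is the promoter window, and the summit labelled col-80 is the one that also counts for bli-1. The 7 coding-exon summits sit between 249 and 846 bp downstream of the start.

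Where a summit had a collagen gene as its nearest start, it mostly lay downstream of that start. Of 18 such summits at 16 genes, 13 or 72.2% lay over 200 bp downstream, against 31.4% of the 1637 summits over all genes. In the promoter window lay 1 of the 18 (5.56%), against 46.6% over all genes. The 16 genes are 9.47% of the members (interval 5.91 to 14.8%), against 6.89% of all protein-coding genes, a share that the interval takes in. In the other series set the order was reversed, with 11 members or 6.51%, against 6.81% of all genes. The shares were 6.51% against 4.39% in replicate 1 and 4.73% against 3.61% in replicate 2. Transfer RNA genes lay within 250 bp of 7 of the 18 summits (38.9%), against 18.6% over all genes.

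The 20 summits nearest to, upstream of or inside a member fell into few kinds. In coding exons of members lay 7, with a median signal of 74.6 (41.9 to 96.1). Beside tRNA genes lay another 7, with a median of 124 (71.0 to 164). The snRNA gene near col-94 had 2 and the other 4 had signals between 64.1 and 120. They were spread over chromosomes II (7), X (5), III (3), IV (3) and V (2), while none lay at the 23 members on chromosome I, which allows a share of up to 13.0% there.

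In each of the 7 tRNA summits, that of col-185 included, the tRNA gene is nearer than the collagen start. At col-85 the summit lay 349 bp downstream of the start, on a tRNA-Ile gene within the gene's span, with a signal of 164 (103 in replicate 1 and 64.0 in replicate 2). At col-181 it lay 1059 bp downstream, on a tRNA-Lys gene, with 150 (64.3 in replicate 1 and 89.6 in replicate 2). Within replicate 1 the col-85 signal was the higher of the pair, and within replicate 2 that of col-181 was. A tRNA-Arg gene lay under the summit within the span of col-99, a gene whose product has 132 Gly-X-Y triplets, 3921 bp from its start, with 144 (74.1 in replicate 1 and 56.1 in replicate 2). Beyond the end of sqt-1, a collagen gene known from squat and roller mutants, a tRNA-Ala gene had 103 (55.4 in replicate 1 and 43.3 in replicate 2). Upstream of col-175 by 3192 bp another tRNA-Ala gene, inside lgc-4, had 95.6 (46.0 in replicate 1 and 47.2 in replicate 2). The weakest of the kind was a tRNA-Leu gene inside rol-3, with 71.0 (38.1 in replicate 1 and 33.0 in replicate 2), and it passed in neither replicate alone. In all, 6 of the 7 passed in replicate 1 and 4 in replicate 2. Within the gene span of col-72, but outside its coding exons and near no tRNA gene, a summit of 104 (74.3 in replicate 1 and 28.6 in replicate 2) lay in a peak where 41.3% of the 36-base words recur elsewhere in the genome.

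**Figure D2:**
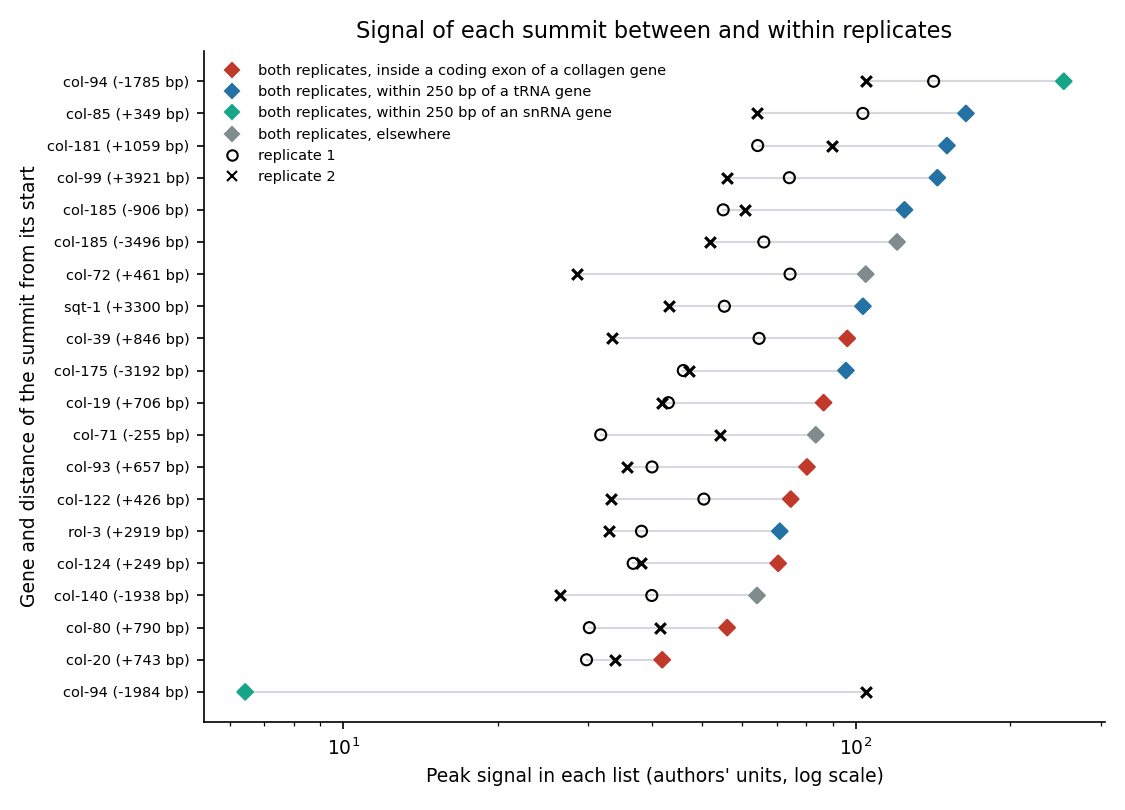
Signal (authors' units, log scale) of the 20 summits in the set between the replicates (diamonds, coloured by kind), replicate 1 (circles) and replicate 2 (crosses), named by gene and distance from its start. The values come from separate lists, so only values of the same symbol are comparable, and the replicate 2 value of 105 at the weakest col-94 summit belongs to the neighbouring peak.

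Summits inside coding exons took up a larger share of the collagen genes than of all genes. They lay in 7 members, a share of 4.14% (interval 2.02 to 8.30%), against 106 genes or 0.531% of all protein-coding genes. This count was added after the data were seen. The median coding length was 912 bp in members, against 987 bp over all genes, and the part of coding length in the result was not tested. The replicates alone gave 3 members against 0.180% of all genes in replicate 1 and 2 members against 0.125% in replicate 2. The 3 in replicate 1 were col-19, col-39 and col-122, and the 2 in replicate 2 were col-20 and col-80. Over all genes replicate 1 gave 36 and replicate 2 gave 25. How many of those are shared is not given here, so the lack of overlap cannot be called particular to collagen genes. In the pooled set 3 members had one, against 0.471% of all genes, and 2 of these, col-39 and col-93, are among the 7. With ranked regions at an IDR of at most 0.05, a threshold chosen after the data were seen, the count was 17 members or 10.1%, against 1.98% of all genes, and included all 7.

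The strongest coding summit was in col-39, 846 bp downstream of its start, with a signal of 96.1, 64.7 in replicate 1 and 33.4 in replicate 2. In col-19, a collagen gene switched on at the transition to the adult and long used as a marker of adult epidermis, the summit lay 706 bp downstream with 86.4, 43.0 in replicate 1 and 41.7 in replicate 2. That region did not pass in replicate 1, where another region in the same gene did, with a signal of 53.1. The summit in col-93 had 80.2 (40.0 in replicate 1 and 35.8 in replicate 2) and passed in neither replicate alone. In col-122 it had 74.6 (50.5 in replicate 1 and 33.2 in replicate 2), and it also lies in the promoter window of lron-14. In col-124 it had 70.5 (36.7 in replicate 1 and 38.1 in replicate 2) and also passed in neither replicate alone. The col-124 summit lay 249 bp downstream of the start and in the promoter window of qns-1. The col-20 summit was the weakest, with 41.9 (29.8 in replicate 1 and 33.9 in replicate 2). The 7 signals thus lie below most tRNA summits and mostly below the median of the set, 89.3, which col-39 alone among them exceeds. All 112 summits in coding exons, these included, had a median signal of 70.0, against 74.6 for the 7. Except at col-20, each of the 7 also lay inside a protein-coding gene on the other strand. These genes were dph-2 (at col-39 and col-80), ZK1193.2 (col-19), dhc-4 (col-93), lron-14 (col-122) and qns-1 (col-124). Which of the overlapping genes such a peak belongs to cannot be told apart.

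**Figure D3:**
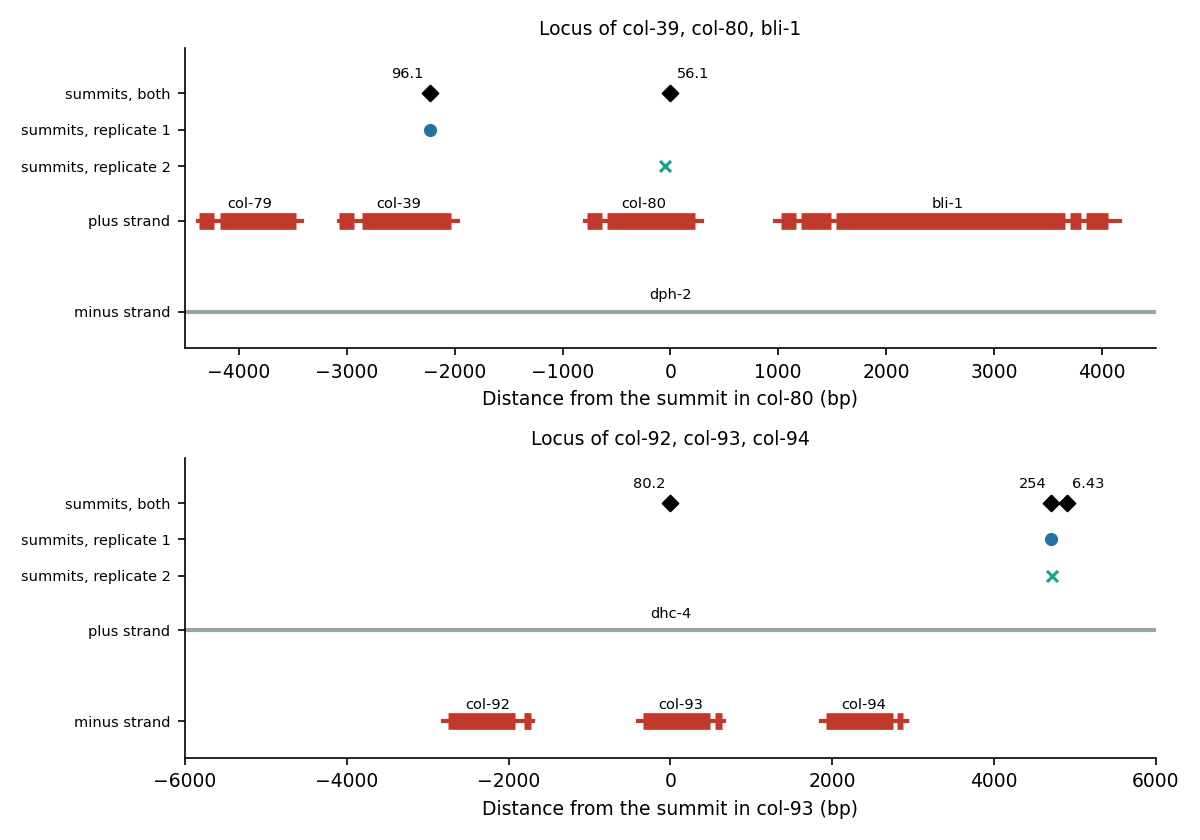
Collagen genes (red, thick parts coding exons) and overlapping or neighbouring genes (grey) by strand, with the summits of the set between the replicates and of each replicate's own set above them, in bp from the summit in col-80 (upper) or col-93 (lower). The numbers are signals in the set between the replicates. The summits of 96.1 and 56.1 lie in the exons of col-39 and col-80, and that of 254 lies outside the collagen genes.

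In 6 of the 7 coding summits the position fell within the Gly-X-Y repeat, col-124 being the exception. The windows of these 6 held 3 to 7 copies of CCAGGA, a word chosen after the sequences were seen and searched on both strands. The word occurs at least 3 times in 6 of 7 member coding windows and in 6 of the 1637 windows of the set, which are those same 6. At least 1 copy lay in 6 of the 7 (85.7%), against 4.76% of the 105 windows in coding exons of other genes and 2.63% of all 1637. The word reads Pro-Gly in frame, so a collagen repeat can hold it with or without a summit. Collagen coding windows without a summit were not counted, so these shares cannot show a link between the word and the summits. The promoter windows held at least 1 copy in 28.4% of members, against 24.3% of all protein-coding genes, and at least 3 copies in 3.55% of members, against 0.666%. The same 101 bp windows had a median GC content of 62.4% (48.5 to 69.3%) at the 7 summits, against 49.5% at the 105 in other genes. Of the 7, 1 peak held a 36-base word that recurs elsewhere in the genome (col-93, 53.3% of its words), against 33.0% of all peaks and 8.04% of those with a summit in a coding exon. The other 6 held no recurring word of that length. Over all members, with or without a summit, the coding exons had a median GC content of 54.8%, against 42.5% over all protein-coding genes. In GC content and CCAGGA, features of the summits therefore cannot be told apart from features of the collagen coding sequence they lie in. At col-124, outside the repeat, the window had a GC content of 48.5% and no CCAGGA. The part of GC content and of CCAGGA in the result was not tested.

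A further set of words was searched on both strands because earlier results of these peaks had named them or because they mark tRNA genes. AGACGCAG lay in 0 of the 20 windows beside members, which allows a share of up to 15%, against 7.27% of all 1637. CTGAGCTA lay in 4 of 20 (20.0%), against 4.64% of all, and the 4 windows are all at tRNA summits. GTTCGANTC, the core of the internal tRNA promoter element called the B box, lay in 3 of 20 (15%), against 5.62%. A match is only a match of letters, and the promoter windows of members held these words in 7.69%, 0.592% and 2.96% of cases in the same order, against 8.63%, 1.63% and 2.89% of all protein-coding genes.

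Below the threshold, the long ranked list of 86867 regions gave a value for most members. A ranked summit lay in the promoter of 130 members (76.9%, interval 70.0 to 82.6%), against 69.2% of all genes. In a coding exon it lay in 144 members (85.2%, interval 79.1 to 89.8%), against 61.9%. For promoters the replicate lists gave 83 members (49.1%) against 51.3% of all genes in replicate 1 and 88 (52.1%) against 50.9% in replicate 2. For coding exons they gave 126 members (74.6%) against 45.9% of all genes in replicate 1 and 128 (75.7%) against 46.1% in replicate 2. In coding exons the share of members was above that of all genes in all 3 lists, while in promoters it was below it in replicate 1 and above it in the other 2 lists.

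Taking the highest ranked signal of each gene, promoters of members had a median of 28.3, against 29.9 over all genes with a region, and 13.1% of the members exceeded the upper quartile of all genes, 40.3. In coding exons the median of members was 36.3, against 29.6, and 43.8% exceeded the upper quartile of 37.7. The order was the same in each replicate. In coding exons the medians were 21.5 against 19.2 in replicate 1 and 18.8 against 17.4 in replicate 2. In promoters they were 18.1 against 20.0 in replicate 1 and 16.6 against 17.7 in replicate 2. Over the 50 members with a promoter region in both replicates, the replicate signals had a Spearman rho of 0.0650, against 0.493 over 6977 genes in all, and over the 109 members with a coding region it was 0.268, against 0.218 over 6021 genes. These points share libraries and describe only how far the replicates order the genes alike.

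**Figure D4:**
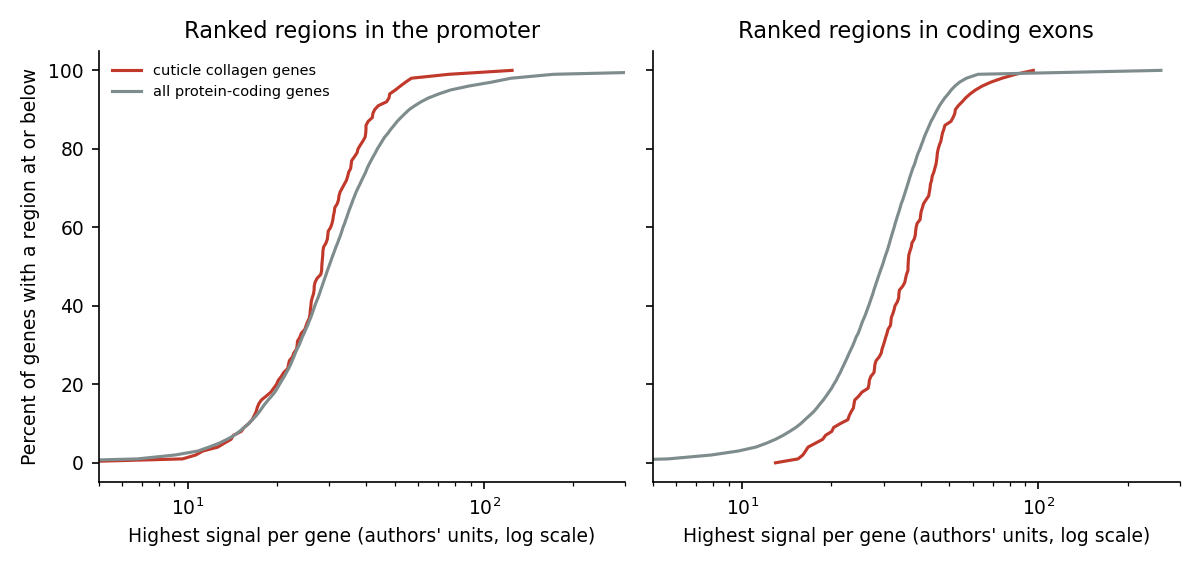
Percent of genes whose highest ranked signal (authors' units, log scale) is at or below a given value, in promoters (left) and coding exons (right), for cuticle collagen genes (red) and all protein-coding genes (grey). The curves for promoters have medians of 28.3 and 29.9, and those for coding exons 36.3 and 29.6.

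Within the members, the ranked summits in coding exons were spread over both the repeat and the rest. Of 254 such summits in members with the repeat, 141 or 55.5% lay within Gly-X-Y, which makes up 48.3% of the residues. The replicate lists gave 61.8% in replicate 1 and 58.0% in replicate 2. Summits within the repeat had a median signal of 30.5, against 25.4 outside it. In replicate 1 these were 21.0 and 16.5, but in replicate 2 they were 16.7 within the repeat and 18.7 outside, so that order did not hold in both replicates.

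The 10 members with the highest ranked promoter signal that did not pass were col-20, col-94, col-151, col-62, col-129, col-124, col-102, col-93, col-138 and col-38, from 57.9 for col-20 to 42.8 for col-38. The col-20 region lay 64 bp upstream of the start, and it would pass at an IDR of at most 0.05. The highest promoter signals of col-20 in the replicate lists were 27.6 in replicate 1 and 30.0 in replicate 2. For col-62 the highest promoter signals were 36.5 in replicate 1 and 10.3 in replicate 2. Such values are the highest of the gene in each list and need not come from the same region. The regions of col-129 and col-138 lay in coding exons near the start as well.

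Among the genes named for body form, bli-1 had the only promoter summit. The highest ranked promoter signal of the others was 39.7, at sqt-1, and it was 20.0 at rol-6, the roller collagen used as a transgenic marker. No ranked region of the list between the replicates lay in the promoter of bli-2, rol-3 or sqt-3, a collagen gene needed from the embryo on. Of the members that are not collagens, bli-4 had a coding region of 64.1, with a −log10 IDR of 1.64 that falls short of the threshold. The highest coding signals of bli-4 in the replicate lists, not necessarily of that region, were 40.0 in replicate 1 and 29.1 in replicate 2.

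Among 86 other genes that are no members, 3 had a promoter summit (3.49%), against the 4.71% of all protein-coding genes. The 86 are genes of the cuticle pathway together with 3 basement membrane collagens, and are called pathway genes below. Of 12 further cuticle collagens, such as dpy-7 and lon-3, none had a promoter summit or coding summit, which with so few genes allows a share of up to 25%. Of 15 genes for collagen synthesis, processing and cross-linking, 3 of them members, 2 had a promoter summit. One was dpy-11, a thioredoxin-like protein of the epidermis, with 98.3 (50.1 in replicate 1 and 49.5 in replicate 2) at 135 bp downstream of the start, and a weaker summit of 30.1 at 493 bp upstream. The other was pdi-2, the protein disulfide isomerase that forms part of prolyl 4-hydroxylase, with 82.8 (48.6 in replicate 1 and 31.3 in replicate 2) at 14 bp upstream. Of 47 other cuticle and apical matrix genes, 1 had a promoter summit, the cuticlin-like gene cutl-23, with 111 beside a tRNA gene. With 2000 bp upstream cutl-28 joined it, with 140, also beside a tRNA gene, and mlt-11, a gene needed for molting, had a coding summit of 62.0. Of 12 regulators of molting and the epidermis none had a promoter summit, but lin-42, the period-like gene that times molts, had 336 (219 in replicate 1 and 118 in replicate 2) at 1073 bp upstream and a coding summit of 72.9. The 3 basement membrane collagens had none.

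Set beside other gene families of the series, collagen genes had promoter summits in a smaller share than ribosomal protein genes did. Promoter summits lay at 1.78% of collagen genes, against 33.3% of the 78 cytosolic ribosomal protein genes and 2.14% of the 140 neuropeptide and insulin-like genes. Coding-exon summits lay in 4.14% of collagen genes, against 1.28% of ribosomal protein genes and 0.714% of neuropeptide and insulin-like genes, whose median coding lengths are 444 bp and 281 bp. These families are shown as values, and the differences were not tested.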

How the data were processed

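The authors deposited peak lists on ce11, per the labels, as thresholded sets and longer ranked lists, for each replicate and for the series. The sources used here name no aligner or peak caller, and reads were not analysed here, so depth is unknown. The deposited signal of each peak is on a scale the authors did not state. The deposited score is a scaled IDR (at least 830 in the set used, an IDR of at most 0.01), and the deposited −log10 IDR values stop at 5. All regions below use the set between the 2 replicates unless named. Replicate signals of a peak are those of the region that shares most bases (at least 1 bp) with it. Where the highest ranked signal of a gene is given, the replicate values are the highest of that gene in each replicate list.

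Gene models were those of Ensembl release 115 (WBcel235, the assembly ce11 names), without the mitochondrial genome, and coding sequences were translated on the RefSeq genome in place of the RefSeq proteins that had been planned. Gly-X-Y runs of at least 3 triplets were counted, and 10 in total called a repeat. Summit windows reach 50 bases to each side, and words of 36 bases were chosen arbitrarily, since the read length is not given. RNA genes within 250 bp of a summit are called near. Shares carry 95% Wilson intervals and no test. The members, lists and words were chosen with earlier results of these data known. Named genes are the members with a promoter summit in any set, those added by 2000 bp, nearest genes, the 10 highest unpassed, body-form genes and bound genes of the lists. One symbol of the lists, ram-4, was not found in the annotation. Gene assignment was tested on simulated data. Python 3.11.15, pandas 2.3.3 and Biopython 1.88 were used.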

Additional observations from a re-analysis of the deposited data

How the results depend on the processing

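The 3 members with a promoter summit (1.78%, against 4.71% of all genes) became 7 with 2000 bp upstream (4.14%, against 6.53%), 11 with 2000 bp upstream and 500 bp downstream (6.51%, against 6.69%), 1 with 500 bp upstream (0.592%, against 3.58%) and 1 in the upper 50% by signal (0.592%, against 2.72%). Replicate 1 alone gave 1 (0.592%, against 3.19%) and replicate 2 alone gave 2 (1.18%, against 2.46%). The remaining 8 settings stayed within 1.5 times, a rule that counts 2 or 4 members as unchanged. Among them, ranked regions at an IDR of at most 0.05 gave 4 members (2.37%, against 7.38%). Genes with a class symbol as background changed only the share beside the members, to 5.93%. Leaving out the members without the collagen repeat could not lower the count, since none of them had a promoter summit. The pathway count of 3 (3.49%) became 5 (5.81%) with 2000 bp upstream, with 500 bp downstream added and at an IDR of at most 0.05, where all genes had 6.53%, 6.69% and 7.38% in that order. Replicate 1 alone gave 4 pathway genes (4.65%, against 3.19% of all genes) and replicate 2 alone gave 1 (1.16%, against 2.46%). The pathway share was thus above that of all genes in replicate 1 and below it in replicate 2. Summits nearest a member, 18, became 11 without those near tRNA genes, 10 in the upper 50% by signal, 12 in replicate 1 alone and 9 in replicate 2 alone. These sets differ in size, so the counts alone do not show a change in share. The members concerned were 11 in replicate 1 (6.51%, against 4.39% of all genes) and 8 in replicate 2 (4.73%, against 3.61%). Shares for the tRNA and signal settings are not given here. Coding-exon members, 7 (4.14%, against 0.531%), became 3 in the pooled set (1.78%, against 0.471%), 1 (col-39) in the upper 50% (0.592%, against 0.0701%) and 17 at an IDR of at most 0.05 (10.1%, against 1.98%). Replicate 1 alone gave 3 (1.78%, against 0.180%) and replicate 2 alone gave 2 (1.18%, against 0.125%). Ranked promoter members, 130 (76.9%, against 69.2%), became 83 in replicate 1 (49.1%, against 51.3%) and 88 in replicate 2 (52.1%, against 50.9%). Their median signal of 28.3 became 18.1 in replicate 1 and 16.6 in replicate 2, from other lists with their own signal values. The cause of these changes was not tested. No paired analysis was possible because there was 1 group. Depth and the untagged background are unknown, which limits every count.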
